A study of Homo sapiens with 6 samples.

Results

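The 10 genes described here encode the ligands and receptors of the transforming growth factor (TGF)-β pathway and part of its intracellular signal: TGFB1, TGFB2, TGFB3, TGFBR1, TGFBR2, TGFBR3, SMAD2, SMAD3, SMAD7 and SKIL. They were taken by gene symbol, as 10 of the 23368 entries of the count table, and all 10 passed the filter on low counts. The set was put together with earlier results of these data known. The cells were HFL-1, a line of human fetal lung fibroblasts, grown under their standard conditions and transfected with siNTC, the non-targeting control, or with either of 2 siRNAs against TAZ, named siTAZ #1 and siTAZ #2. TAZ, encoded by WWTR1, is a transcriptional coactivator of the Hippo pathway that binds DNA through TEAD factors. RNA was taken 48 h after transfection, and each group had 2 libraries, and the methods say that each TAZ siRNA was transfected in 2 replicates. Separate cultures are not stated for siNTC in the sources used here, so its spread may be technical. The labels name no TGF-β treatment, and all groups, siNTC included, went through the same transfection of a single cell line. The question was how the transcripts of this pathway stood after TAZ knockdown.

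TGF-β ligands are secreted in a latent complex and, once released, bind the type II receptor TGFBR2, which then phosphorylates the type I receptor TGFBR1. TGFBR3, also called betaglycan, presents ligand to TGFBR2. The active receptors phosphorylate SMAD2 and SMAD3, which enter the nucleus with SMAD4 and turn on matrix and contractile genes in fibroblasts, while SMAD7 and SKIL, which are themselves induced by the signal, restrain it. TAZ is known to bind SMAD complexes and to take part in their localization.

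To place the genes beside the letters that TEAD and SMAD proteins are known to bind, promoters were taken from RefSeq (GRCh38.p14) from 250 bases before to 50 bases after each annotated start, which gave 26 promoters for the 10 genes. GGAATG, the core of TEAD sites, was searched on both strands, as were CAGAC, which is bound by SMAD3, and the SMAD palindrome GTCTAGAC. None of the 3 patterns contains another. GGAATG stood in 2 of the 26 promoters, 7.69%, and in 14% of all 35116 promoters of this length. CAGAC stood in 12 of the 26, 46.2%, and in 45.3% of all promoters. The palindrome stood in 0 of the 26 and in 0.202% of all. The shares of TEAD and CAGAC letters among these 26 promoters were thus below and near those of all promoters. Promoters of the same gene can overlap, so a match can be counted more than once. By gene, the TEAD letters stood in 2 of the 10 and CAGAC in 6. A match is a description of letters, not a binding site. The following 4 promoters are shown, 5′ to 3′ on the strand of the gene, with these letters on either strand in capitals. TGFBR1 rose the most and TGFBR3 fell the most, TGFB2 was the ligand with a TEAD match, and SMAD7 is an established SMAD target.
TGFBR1, chr9:99104863-99105162, plus strand: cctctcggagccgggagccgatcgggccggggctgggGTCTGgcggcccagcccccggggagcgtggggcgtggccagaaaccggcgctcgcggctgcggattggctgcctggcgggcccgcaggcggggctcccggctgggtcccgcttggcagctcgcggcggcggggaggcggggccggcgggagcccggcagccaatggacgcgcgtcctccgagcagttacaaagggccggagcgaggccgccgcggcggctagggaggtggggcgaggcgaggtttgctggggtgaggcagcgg
TGFBR3, chr1:91886102-91886401, minus strand: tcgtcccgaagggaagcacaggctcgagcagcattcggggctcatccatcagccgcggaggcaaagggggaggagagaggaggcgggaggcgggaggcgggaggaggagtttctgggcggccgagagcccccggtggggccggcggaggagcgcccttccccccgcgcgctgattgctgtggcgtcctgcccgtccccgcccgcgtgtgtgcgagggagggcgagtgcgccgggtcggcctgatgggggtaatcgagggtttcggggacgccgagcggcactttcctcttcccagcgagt
TGFB2, chr1:218345086-218345385, plus strand: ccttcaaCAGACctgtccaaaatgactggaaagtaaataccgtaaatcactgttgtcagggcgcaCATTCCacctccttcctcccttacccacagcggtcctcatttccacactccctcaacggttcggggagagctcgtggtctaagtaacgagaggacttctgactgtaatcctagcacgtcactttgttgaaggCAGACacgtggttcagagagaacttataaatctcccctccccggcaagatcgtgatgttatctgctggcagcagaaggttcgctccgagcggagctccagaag
SMAD7, chr18:48950916-48951215, minus strand: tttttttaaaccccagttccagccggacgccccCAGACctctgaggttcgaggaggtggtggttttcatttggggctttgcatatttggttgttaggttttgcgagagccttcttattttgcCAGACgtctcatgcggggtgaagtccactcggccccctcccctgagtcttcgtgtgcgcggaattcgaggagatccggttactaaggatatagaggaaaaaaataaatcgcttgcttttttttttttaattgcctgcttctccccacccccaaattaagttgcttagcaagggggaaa
The first of these, the TGFBR1 promoter, held a single CAGAC match and is the first of 8 starts listed for the gene, of which another held the TEAD letters. The promoter of TGFBR3 held none of the 3 patterns, and that of TGFB2 held the TEAD letters once and CAGAC at 2 places. The SMAD7 promoter shown is the first of 3 starts listed and held CAGAC at 2 places. The other SMAD7 starts held CAGAC at 1 place and at 0 places.

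Levels are given as CPM, counts of a gene brought to the same library depth by TMM normalization, and the libraries held 15648055 to 32078188 counts. Differences are log2 fold changes with their standard error (SE) from the quasi-likelihood test of edgeR, fitted to all 6 libraries together, and a gene was called when its Benjamini-Hochberg adjusted p (FDR) over the 14053 genes tested was under 0.05. WWTR1 was at 132 and 131 CPM with siNTC, 26.4 and 28.4 with siTAZ #1, and 46.1 and 43.1 with siTAZ #2. It fell with both siRNAs (-2.26, SE 0.10, FDR 0.00062, and -1.56, SE 0.10, FDR 0.00068) and was lower with siTAZ #1 than with siTAZ #2 (-0.70, FDR 0.005), a difference that edgeR's exact test did not call (FDR 0.24). WWTR1 shares 9.05% of its exon bases with WWTR1-AS1 on the opposite strand. From RANGAP1 on chromosome 22 through X and Y, replicate 2 of siTAZ #1 had lost nearly all reads, with 0.248% of its counts there against 3.58% to 3.75% in the others. None of the 10 genes lies there. All 9 fibroblast markers were detected, with a summed level of 34500 to 34600 CPM with siNTC, 21900 to 22800 with siTAZ #1 and 26800 to 28500 with siTAZ #2. Markers of epithelial cells summed to 5.01 to 6.75 CPM and those of endothelial cells to 0.888 to 3.5. Smooth muscle markers summed to 98.6 to 103 CPM with siNTC, 105 to 115 with siTAZ #1 and 129 to 141 with siTAZ #2, mainly SMTN, and leukocyte markers to 74.1 to 75.3, 69.1 to 75.7 and 38.2 to 49 CPM, mainly CD68. None of these markers was at 0 in all libraries. Their part in the following results was not tested, and fewer cells of a type and less RNA per cell cannot be told apart in bulk RNA.

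With siTAZ #1, 5 of the 10 genes were called: TGFBR3 and SMAD3 fell, and TGFB1, TGFBR1 and SMAD2 rose. Among all genes tested, 9.78% were called lower and 10.8% higher in this comparison. With siTAZ #2, all 10 were called, 4 lower (TGFB3, TGFBR2, TGFBR3 and SMAD3) and 6 higher, where the shares of all genes were 14.4% and 14.1%. Between the siRNAs, 8 of the 10 differed: TGFB1, TGFB2, SMAD7 and SKIL were lower with siTAZ #1, and TGFB3, TGFBR1, TGFBR2 and TGFBR3 were higher, against 13.4% and 15.2% of all genes. The median log2 fold change of the 10 genes was 0.35 with siTAZ #1 and 0.78 with siTAZ #2, and that of all genes was 0.0165 and 0.0145. The 10 genes were chosen with earlier results of these data known, so these shares and medians describe them and test nothing. Both siRNAs were compared with the same siNTC libraries, so the 2 comparisons are not independent. TGFBR3 is among the genes that the study listed as lowered by both siRNAs in these libraries, so its direction is not independent evidence. The call counts moved most with siTAZ #1, where 5 of the 10 genes and 2889 of all genes were called. Calls by edgeR's exact test were 2 of the 10 and 1061 of all genes. Fewer were also called without either siNTC library, among the 10 and among all genes. DESeq2 called 7 of the 10 and 3968 of all genes. The same 7 of 10 were reached with library totals (2876 of all genes) and with a mean count of at least 50 (2972). Without the genes from RANGAP1 through Y, 7 of the 10 and 4108 of all genes were called. Dropping those genes lowered the common dispersion, the shared estimate of spread, from 0.0807 to 0.0164.

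**Figure D1:**
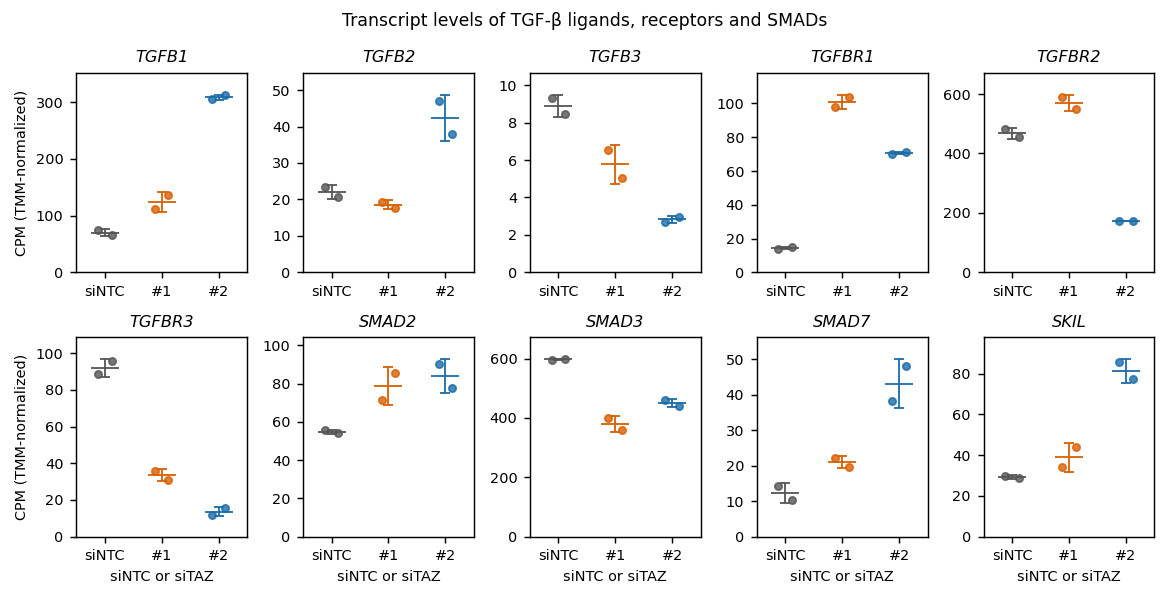
Each panel shows CPM after TMM scaling (linear axis from 0) for a gene in the 2 libraries of siNTC, siTAZ #1 and siTAZ #2, with points for libraries and lines for the mean ± SD. TGFBR1 stands at 13.9 and 14.9 CPM with siNTC and at 70.3 to 104 in the 4 siTAZ libraries, while TGFBR3 falls from 88.4 and 95.5 to 12 to 36.

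**Figure D2:**
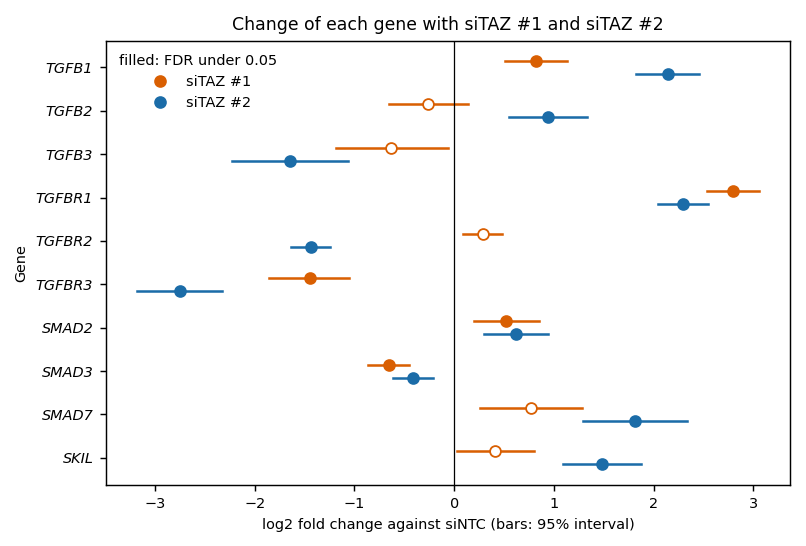
Points show the log2 fold change of each gene against siNTC on the x axis for siTAZ #1 and siTAZ #2, bars show 95% intervals, and filled points passed an FDR of 0.05. All 10 points are filled for siTAZ #2 and 5 for siTAZ #1, and TGFB2 and TGFBR2 lie on opposite sides of 0 in the 2 comparisons.

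Among the ligands, TGFB1 rose with both siRNAs, TGFB2 rose with siTAZ #2, and TGFB3 fell with siTAZ #2. TGFB1, the most widely expressed of the isoforms, is on chromosome 19 of GRCh37, from 41807492 to 41859827 on the minus strand. Its level was 74.4 and 65.6 CPM with siNTC, 111 and 136 with siTAZ #1 and 305 and 312 with siTAZ #2. The 3 groups did not overlap. TGFB1 was thus 1.76-fold higher with siTAZ #1 (log2 fold change 0.82, SE 0.13, FDR 0.0094) and 4.41-fold higher with siTAZ #2 (2.14, SE 0.13, FDR 0.00064), and it was lower with siTAZ #1 than with siTAZ #2 (-1.32, SE 0.13, FDR 0.0017). The rise with siTAZ #1 no longer passed in the exact test of edgeR (FDR 0.089), without replicate 1 of siNTC (FDR 0.062) or without its replicate 2 (FDR 0.088). The gene shares 215 bases, 6.59% of its exon bases, with HNRNPUL1 on the opposite strand, and whether the counting used strand is not given in the sources used here.

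TGFB2, the isoform known for heart and skeletal development, is on chromosome 1 of GRCh37, from 218518678 to 218617961 on the plus strand. It was at 23.5 and 20.8 CPM with siNTC, 19.4 and 17.7 with siTAZ #1, and 46.9 and 37.9 with siTAZ #2. Both libraries of siTAZ #2 lay above all others, and those of siTAZ #1 lay below siNTC by little. The rise with siTAZ #2 was 1.92-fold (0.94, SE 0.16, FDR 0.0094), the value with siTAZ #1 was -0.26 (SE 0.16, FDR 0.31; 95% interval -0.65 to 0.14), and the siRNAs differed by -1.19 (FDR 0.0043). The rise did not pass without replicate 1 of siNTC (FDR 0.058), without replicate 2 of siNTC (FDR 0.085) or without replicate 1 of siTAZ #2 (FDR 0.057). Of its exon bases, 22.7% are shared with TGFB2-OT1 on the same strand and 11.6% with TGFB2-AS1 on the other, so reads of these transcripts may be counted with it.

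TGFB3, the isoform known for palate closure, is on chromosome 14 of GRCh37, from 76424440 to 76449354 on the minus strand. Its level was 9.32 and 8.46 CPM with siNTC, 6.52 and 5.03 with siTAZ #1, and 2.71 and 2.96 with siTAZ #2. It had the fewest reads of the 10 genes, 49 to 164 per library. The groups stepped down without overlap, and TGFB3 was 3.13-fold lower with siTAZ #2 (-1.65, SE 0.24, FDR 0.0057), while the value with siTAZ #1, -0.63 (SE 0.23), was not called (FDR 0.11). The difference between the siRNAs was 1.02 (FDR 0.025), and 8 of 17 alternatives lost it. Those included leaving out replicate 1 of siNTC (FDR 0.057), replicate 2 of siNTC (FDR 0.057), replicate 1 of siTAZ #1 (FDR 0.064), replicate 1 of siTAZ #2 (FDR 0.11) or replicate 2 of siTAZ #2 (FDR 0.096).

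To compare levels between genes, CPM were divided by the length of the longest annotated transcript in kilobases. On this scale TGFB1 made up 79.9% and 79.7% of the summed level of the 3 ligands with siNTC, 88.4% and 91.6% with siTAZ #1, and 92.6% and 93.9% with siTAZ #2. TGFB1 was the main ligand transcript in all 6 libraries. The summed ligand level per length was 33.5 and 29.6 CPM per kilobase with siNTC, 45 and 53.5 with siTAZ #1, and 118 and 120 with siTAZ #2. TGFB3 went from 8.11% and 8.33% of the ligand level with siNTC to 0.667% and 0.721% with siTAZ #2, where it was the smallest part.

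**Figure D3:**
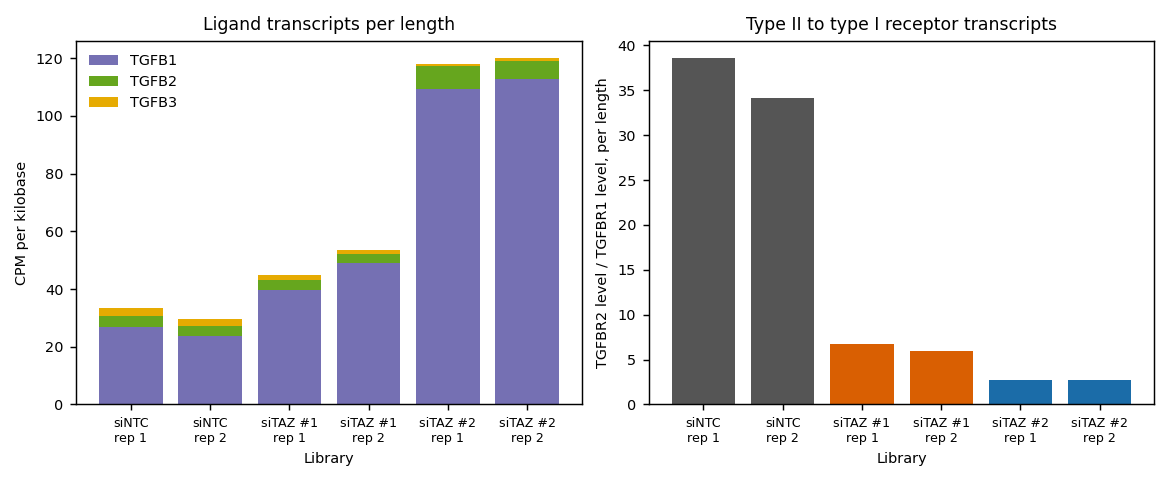
The left panel stacks the levels of TGFB1, TGFB2 and TGFB3 in CPM per kilobase in each library (linear axis from 0), and the right panel gives the level of TGFBR2 divided by that of TGFBR1, both per length. The summed ligand level is 29.6 to 33.5 with siNTC and 118 to 120 with siTAZ #2, and the receptor ratio goes from 34.2 and 38.6 to 2.71 and 2.75.

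Among the receptors, the type I receptor TGFBR1 rose with both siRNAs, the co-receptor TGFBR3 fell with both, and the type II receptor TGFBR2 fell with siTAZ #2. TGFBR1, the kinase that phosphorylates SMAD2 and SMAD3, is on chromosome 9 of GRCh37, from 101866320 to 101916474 on the plus strand. It was at 13.9 and 14.9 CPM with siNTC, 97.9 and 104 with siTAZ #1, and 70.3 and 71 with siTAZ #2. All 4 siTAZ libraries lay far above siNTC. TGFBR1 was 6.98-fold higher with siTAZ #1 (2.80, SE 0.11, FDR 0.00044) and 4.89-fold higher with siTAZ #2 (2.29, SE 0.10, FDR 0.00041), and these calls held in all 17 alternatives, with log2 fold changes of 2.64 to 2.84 and 2.23 to 2.34. It was higher with siTAZ #1 than with siTAZ #2 (0.51, FDR 0.014). That difference was not called by the exact test (FDR 0.29), with an offset for GC content (0.35, FDR 0.051), without replicate 1 of siTAZ #2 (FDR 0.074) or without its replicate 2 (FDR 0.073).

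TGFBR2, the receptor that ligand binds first, is on chromosome 3 of GRCh37, from 30648093 to 30735634 on the plus strand. Its level was 481 and 454 CPM with siNTC, 590 and 550 with siTAZ #1, and 173 and 172 with siTAZ #2. The siTAZ #2 libraries lay well below all others, and the siTAZ #1 libraries lay above siNTC. TGFBR2 was 2.72-fold lower with siTAZ #2 (-1.44, SE 0.08, FDR 0.00063), and its value with siTAZ #1 was 0.29 (SE 0.08, FDR 0.052). The difference between the siRNAs, 1.73 (SE 0.08, FDR 0.0005), was the largest of the 10 genes, and it was called in all 17 alternatives. The value with siTAZ #1 stood close to the threshold and was called by DESeq2 (FDR 0.034), with library totals (FDR 0.035), with a mean count of at least 50 (FDR 0.044) and without replicate 2 of siTAZ #1 (FDR 0.019).

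TGFBR3, the co-receptor that presents ligand, is on chromosome 1 of GRCh37, from 92145900 to 92371892 on the minus strand. It was at 88.4 and 95.5 CPM with siNTC, 36 and 31.1 with siTAZ #1, and 12 and 15.3 with siTAZ #2. The groups did not overlap and were lowest with siTAZ #2. TGFBR3 was 2.74-fold lower with siTAZ #1 (-1.45, SE 0.16, FDR 0.0039) and 6.74-fold lower with siTAZ #2 (-2.75, SE 0.17, FDR 0.00064), the largest fall of the 10 genes, and the siRNAs differed by 1.30 (FDR 0.0037). All 3 calls held in all 17 alternatives.

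The ratios between receptor transcripts moved with these changes. Per length, the level of TGFBR2 was 38.6 and 34.2 times that of TGFBR1 with siNTC, 6.76 and 5.95 times with siTAZ #1, and 2.75 and 2.71 times with siTAZ #2. TGFBR2 transcripts stayed above those of TGFBR1 in every library. The level of TGFBR3 was 6.38 and 6.45 times that of TGFBR1 with siNTC, 0.37 and 0.302 times with siTAZ #1, and 0.171 and 0.217 times with siTAZ #2, so the order of these receptors turned in all 4 siTAZ libraries. Protein levels are not part of these data.

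SMAD2 and SMAD3, the receptor-regulated SMADs of the TGF-β branch, were called with both siRNAs, SMAD2 higher and SMAD3 lower. SMAD2 is on chromosome 18 of GRCh37, from 45335328 to 45457517 on the minus strand. It was at 55.5 and 54 CPM with siNTC, 71.6 and 85.8 with siTAZ #1, and 90.4 and 77.7 with siTAZ #2. The 4 siTAZ libraries lay above siNTC and overlapped between the siRNAs. SMAD2 was 1.44-fold higher with siTAZ #1 (0.52, SE 0.13, FDR 0.041) and 1.53-fold higher with siTAZ #2 (0.62, SE 0.13, FDR 0.019). Between the siRNAs it differed by -0.09 (FDR 0.64; 95% interval -0.42 to 0.23). These calls were near the threshold. That with siTAZ #1 was lost in 10 of 17 alternatives, among them the exact test (FDR 0.46) and leaving out replicate 1 of siNTC (FDR 0.18), replicate 2 of siNTC (FDR 0.2), replicate 2 of siTAZ #1 (FDR 0.052), replicate 1 of siTAZ #2 (FDR 0.065) or replicate 2 of siTAZ #2 (FDR 0.066). That with siTAZ #2 was lost in 5 of 17, among them leaving out replicate 1 of siNTC (FDR 0.11), replicate 2 of siNTC (FDR 0.12), replicate 1 of siTAZ #2 (FDR 0.1) or replicate 2 of siTAZ #2 (FDR 0.051).

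SMAD3, which unlike the main form of SMAD2 binds DNA directly, is on chromosome 15 of GRCh37, from 67356101 to 67487511 on the plus strand. Its level was 596 and 599 CPM with siNTC, 399 and 361 with siTAZ #1, and 460 and 440 with siTAZ #2. All siTAZ libraries lay below siNTC. SMAD3 was 1.57-fold lower with siTAZ #1 (-0.65, SE 0.08, FDR 0.0054) and 1.33-fold lower with siTAZ #2 (-0.41, SE 0.08, FDR 0.017), and the siRNAs differed by -0.24 (FDR 0.076; 95% interval -0.45 to -0.04). The fall with siTAZ #1 did not pass in the exact test (FDR 0.16) or without replicate 1 (FDR 0.062) or replicate 2 of siNTC (FDR 0.064). That with siTAZ #2 did not pass without replicate 1 of siNTC (FDR 0.1), replicate 2 of siNTC (FDR 0.11), replicate 1 of siTAZ #2 (FDR 0.067) or replicate 2 of siTAZ #2 (FDR 0.089). The difference between the siRNAs was called in 4 of 17 alternatives: with DESeq2 (FDR 0.048), upper-quartile scaling (FDR 0.048), the GC offset (FDR 0.035) and without replicate 1 of siTAZ #1 (-0.31, FDR 0.016). SMAD4, the shared partner of both, was outside the rule for named genes and was named after its values were seen: 100 and 108 CPM with siNTC, 86 and 85 with siTAZ #1 (-0.28, FDR 0.062), and 97.3 and 101 with siTAZ #2 (-0.07, FDR 0.57).

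Both feedback inhibitors rose with siTAZ #2. SMAD7, which blocks SMAD2 and SMAD3 at the receptor and recruits ubiquitin ligases to it, is on chromosome 18 of GRCh37, from 46446223 to 46477335 on the minus strand. It was at 14.2 and 10.3 CPM with siNTC, 22.1 and 19.7 with siTAZ #1, and 38.2 and 48.1 with siTAZ #2. The groups stepped up without overlap. SMAD7 was 3.51-fold higher with siTAZ #2 (1.81, SE 0.21, FDR 0.0029), while its value with siTAZ #1 was 0.77 (SE 0.21, FDR 0.051; 95% interval 0.26 to 1.28). The siRNAs differed by -1.04 (FDR 0.015), a call lost in the exact test (FDR 0.056) and without replicate 2 of siTAZ #2 (-0.86, FDR 0.099). The value with siTAZ #1 was called in 7 of 17 alternatives, among them DESeq2 (FDR 0.0037) and leaving out replicate 1 (FDR 0.019) or replicate 2 of siTAZ #1 (FDR 0.0075).

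SKIL encodes SnoN, a repressor that binds SMAD complexes on DNA and is degraded when the pathway is active. It is on chromosome 3 of GRCh37, from 170075130 to 170114623 on the plus strand. Its level was 29.9 and 28.5 CPM with siNTC, 33.9 and 43.9 with siTAZ #1, and 85.5 and 77.1 with siTAZ #2. The groups did not overlap, and the siTAZ #1 libraries lay nearer to siNTC. SKIL was 2.78-fold higher with siTAZ #2 (1.48, SE 0.16, FDR 0.0023), its value with siTAZ #1 was 0.41 (SE 0.16, FDR 0.12), and the siRNAs differed by -1.06 (FDR 0.0058). Without replicate 1 of siTAZ #1, the value with siTAZ #1 was 0.59 and was called (FDR 0.0039), and without its replicate 2 it was 0.22 (FDR 0.37). It was also called without the genes from RANGAP1 on (0.40, FDR 0.049), and it was 0.13 with an offset for GC content (FDR 0.37).

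Per length, the siNTC levels covered a wide range. SMAD3 was highest at 92.5 ± 0.332 CPM per kilobase (SD, n = 2), followed by TGFBR2 at 80.7 ± 3.19, TGFB1 at 25.2 ± 2.25 and TGFBR3 at 14.2 ± 0.772. The next were SKIL at 3.88 ± 0.131, TGFB2 at 3.77 ± 0.332 and SMAD7 at 3.67 ± 0.815, and then TGFB3 at 2.59 ± 0.178 and TGFBR1 at 2.22 ± 0.103. The libraries of SKIL, TGFB2 and SMAD7 overlapped, so these neighbours did not differ beyond their spread. SMAD2 was left out of the order, since its longest annotated transcript has 34626 bases, many times the length of the others. Divided by the union of all exons instead, SMAD3 (59.7) was below TGFBR2 (68.3) and TGFB3 (1.7) below TGFBR1 (1.8), so the order within these pairs depends on the length used. With siTAZ #2 the order changed: TGFB1 was highest at 111 ± 1.88, SMAD3 stood at 69.6 ± 2.27 and TGFBR2 at 29.7 ± 0.124, and SMAD7 at 12.9 ± 2.08, TGFBR1 at 10.9 ± 0.0777 and SKIL at 10.8 ± 0.796 stood above TGFBR3 at 2.12 ± 0.37.

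To find genes with a like pattern, log2(CPM + 1) relative to the siNTC mean was compared over the 6 libraries with the other 14052 genes, for the gene with the largest mean change, TGFBR1, and for the gene that differed most between the siRNAs, TGFBR2. Nearest to TGFBR1 was LOC729950, an uncharacterized locus with a root mean square difference of 0.141, against a median of 2.05 over all genes, followed by NEK7, a mitotic kinase that also takes part in inflammasome assembly (0.254), and KREMEN1, a receptor that inhibits Wnt signaling (0.269). LOC729950 was below 1 CPM with siNTC (0.697 and 0.568), where adding 1 shrinks its change. NEK7 went from 15.3 and 13.6 CPM with siNTC to 74.8 and 78.9 with siTAZ #1 and 82.2 and 67.5 with siTAZ #2. Nearest to TGFBR2 were ARHGEF3, a guanine nucleotide exchange factor (0.089), FOXJ2, a forkhead transcription factor (0.099), and BUB1, a kinase of the spindle checkpoint (0.121), against a median of 0.922. BUB1 was at 131 and 120 CPM with siNTC, 141 and 137 with siTAZ #1, and 51.7 and 50.2 with siTAZ #2.

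The rest of the pathway was described over 7 lists with 100 genes in all, of which 88 passed the filter on low counts. Of these, 16 were called lower and 22 higher with siTAZ #1, 21 and 31 with siTAZ #2, and 24 and 20 between the siRNAs, beside the shares of all genes given before. The medians were 0.14, 0.18 and -0.07. The lists hold WWTR1, the target of the siRNAs, and CTGF, IGFBP3, INHBE and COL1A2. The study listed all of these as lowered by both siRNAs in these libraries, so the counts of lower genes are in part not independent evidence. Over all genes, the quasi-likelihood test called 2889 with siTAZ #1 and 4004 with siTAZ #2, and the exact test 1061 and 6424. Libraries of siTAZ #1 differed most from each other. Their mean chi-square per gene, a measure of difference relative to counting noise, was 92.2, against 5.39 with siNTC and 11.7 with siTAZ #2. The genes from RANGAP1 through Y, with few reads in replicate 2, count toward it. Its part in the calls was not tested. The calls of single genes named from these lists depended on the alternatives more often with siTAZ #1. Of 27 such calls with siTAZ #1, 10 held in all 17 alternatives (ITGB5, CD109, SMAD5, PMEPA1, GDF15, IGFBP3, CTGF, IL11, CDKN2B and POSTN). The other 17 were lost in at least 1 alternative, and all of these were lost without a siNTC library. With siTAZ #2, 18 of 30 held in all and 12 were lost without a siNTC library. For none of the 8 genes called in opposite directions did both calls hold in all 17 alternatives.

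**Figure D4:**
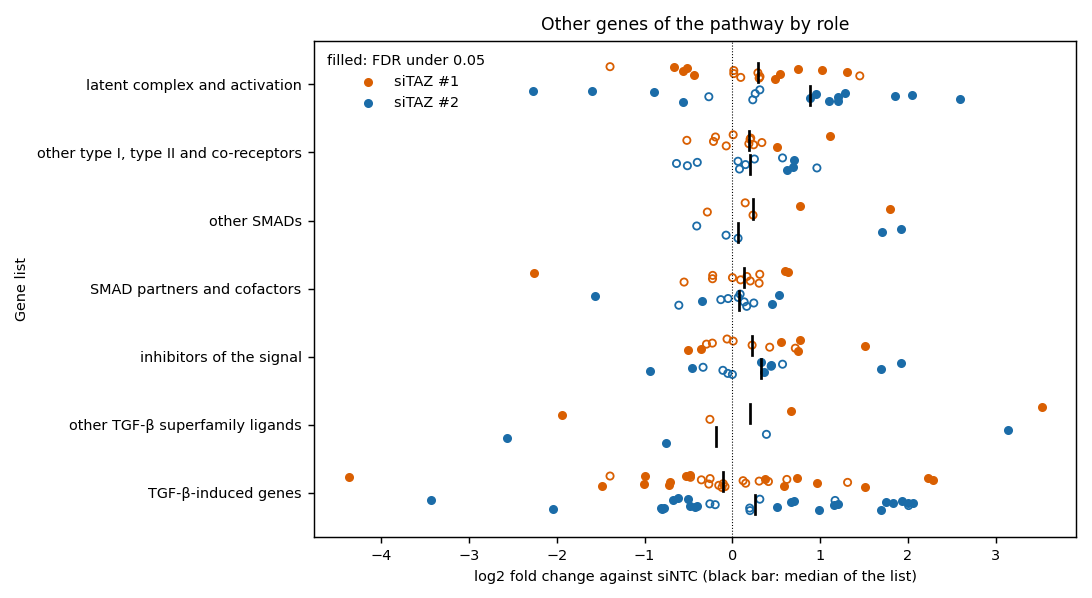
Each point is a gene of a list, placed by its log2 fold change against siNTC on the x axis for siTAZ #1 (upper row) and siTAZ #2 (lower row), with filled points for an FDR under 0.05 and black bars for list medians. The list for the latent complex has the highest median with siTAZ #2, 0.88, and that of TGF-β-induced genes spreads from -3.43 to 2.06.

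Of 17 tested genes for the latent complex and activation, 4 fell and 5 rose with siTAZ #1, and 4 fell and 9 rose with siTAZ #2. ITGB5, the β subunit of integrin αvβ5, which can release active TGF-β, went from 178 and 172 CPM with siNTC to 450 and 417 with siTAZ #1 (1.31, FDR 0.00086) and to 702 and 741 with siTAZ #2 (2.04, FDR 0.00037). ITGB3, of the same integrin group, rose with siTAZ #2 (1.86, FDR 0.00068), and its value with siTAZ #1 was 0.29 (FDR 0.13). DCN (decorin), a proteoglycan that binds TGF-β and is also among the fibroblast markers, fell with both siRNAs (-0.66, FDR 0.01, and -1.59, FDR 0.00072). FBN2 (fibrillin-2), a microfibril protein, also fell with both (-0.52, FDR 0.014, and -2.27, FDR 0.00037). With siTAZ #1, both calls were lost in the exact test (FDR 0.17 for DCN and 0.33 for FBN2), without replicate 1 of siNTC (FDR 0.081 and 0.099) and without its replicate 2 (FDR 0.092 and 0.11). In 4 genes of this list the siRNAs gave calls in opposite directions. FBN1 (fibrillin-1), to which latent complexes are anchored, was higher with siTAZ #1 (0.74, FDR 0.0054) and lower with siTAZ #2 (-0.89, FDR 0.0023), as was LTBP1, which tethers latent TGF-β to the matrix (0.49, FDR 0.015, and -0.56, FDR 0.0075). FURIN, the protease that cleaves the TGF-β precursor, was lower with siTAZ #1 (-0.44, FDR 0.023) and higher with siTAZ #2 (0.88, FDR 0.002), as was ITGB8, of the activating integrin αvβ8 (-0.57, FDR 0.042, and 0.95, FDR 0.0067).

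Of 12 other receptors and co-receptors, 2 rose with siTAZ #1 and 3 with siTAZ #2, and none was called lower in the quasi-likelihood test. ACVR1, a type I receptor for bone morphogenetic proteins, rose with both (0.51, FDR 0.022, and 0.62, FDR 0.0089). CD109, a membrane protein that inhibits TGF-β receptors, rose with siTAZ #1 (1.11, FDR 0.0042), with 0.25 (FDR 0.2) under siTAZ #2, and ENG (endoglin), a co-receptor, rose with siTAZ #2 (0.70, FDR 0.0067), with -0.19 (FDR 0.26) under siTAZ #1. Of 5 other SMADs, SMAD5 of the BMP branch went from 31.3 and 31.6 CPM with siNTC to 105 and 114 with siTAZ #1 (1.80, FDR 0.00098) and 112 and 93 with siTAZ #2 (1.70, FDR 0.0008). SMAD6, the inhibitory SMAD of the BMP branch, was also called higher with both (0.77, FDR 0.048, and 1.92, FDR 0.0023). Its mean with siNTC was only 4.59 CPM, and its call with siTAZ #1 was lost in 11 of 17 alternatives.

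Of 12 tested partners and cofactors, 1 was called lower and 2 higher with siTAZ #1, and 2 lower and 2 higher with siTAZ #2. The lowest was WWTR1 itself. YAP1, the paralog of TAZ, rose with both (0.64, FDR 0.029, and 0.54, FDR 0.039), TEAD1, the DNA-binding partner of both, rose with siTAZ #1 (0.60, FDR 0.0051), with 0.09 (FDR 0.41) under siTAZ #2. CREBBP, a histone acetyltransferase that SMADs recruit, fell with siTAZ #2 (-0.34, FDR 0.044), with 0.00 (FDR 0.99) under siTAZ #1, and HGS, an endosomal sorting protein, rose with siTAZ #2 (0.46, FDR 0.012), with 0.21 (FDR 0.14) under siTAZ #1. Of 13 tested inhibitors, 2 fell and 4 rose with siTAZ #1, and 2 fell and 5 rose with siTAZ #2. PMEPA1, a TGF-β-induced inhibitor that binds SMAD2 and SMAD3, went from 13.2 and 15 CPM with siNTC to 36.5 and 43.9 with siTAZ #1 (1.51, FDR 0.0026) and to 46.6 and 44.9 with siTAZ #2 (1.69, FDR 0.0013). SMURF2, a ubiquitin ligase that SMAD7 brings to the receptor, was lower with siTAZ #1 (-0.36, FDR 0.04) and higher with siTAZ #2 (0.37, FDR 0.029). Its relative SMURF1 fell with siTAZ #1 (-0.51, FDR 0.022), with -0.05 (FDR 0.76) under siTAZ #2, and SKI, the relative of SKIL, rose with siTAZ #1 (0.75, FDR 0.009), with 0.00 (FDR 0.99) under siTAZ #2. TGIF1, a SMAD corepressor, and WWP1, a ubiquitin ligase, fell with siTAZ #2 (-0.46, FDR 0.021, and -0.93, FDR 0.031), with 0.23 (FDR 0.17) and 0.72 (FDR 0.076) under siTAZ #1. Apart from WWTR1 and PMEPA1, whose calls held in all 17 alternatives, these calls against siNTC were lost in some. With siTAZ #1 and siTAZ #2, those of SMURF2 were lost in 9 and 6 and those of YAP1 in 4 and 5. That of CREBBP was lost in 7, and those of TEAD1, HGS, SMURF1, SKI, TGIF1 and WWP1 in 3 to 5.

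Of 12 other ligands of the superfamily, only 4 passed the filter on low counts. GDF15, a stress-induced ligand, went from 16 and 18 CPM with siNTC to 204 and 189 with siTAZ #1 (3.53, FDR 0.00043) and to 140 and 161 with siTAZ #2 (3.14, FDR 0.00034). INHBE, an activin subunit, fell with both (-1.94, FDR 0.0049, and -2.56, FDR 0.0017), and it is on the study's list of genes lowered by both siRNAs. GDF11 rose with siTAZ #1 (0.66, FDR 0.018), with 0.39 (FDR 0.068) under siTAZ #2, and INHBA, the subunit of activin A, fell with siTAZ #2 (-0.75, FDR 0.046), with -0.25 (FDR 0.44) under siTAZ #1.

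The 30 TGF-β-induced genes did not move in a single direction. With siTAZ #1, 8 fell and 7 rose, and with siTAZ #2, 11 fell and 12 rose, with medians of -0.11 and 0.26. CTGF, a matricellular protein that YAP and TAZ also induce, went from 1280 and 1230 CPM with siNTC to 487 and 415 with siTAZ #1 (-1.48, FDR 0.001) and to 301 and 310 with siTAZ #2 (-2.04, FDR 0.0005). IGFBP3, which binds insulin-like growth factors, fell the most (-4.37, FDR 0.00043, and -3.43, FDR 0.00037). Both genes are on the study's list of genes lowered by both siRNAs. IL11, a cytokine of the interleukin-6 family, rose with both (2.22, FDR 0.00084, and 1.93, FDR 0.00076), as did CDKN2B, the p15 inhibitor of the cell cycle (2.29, FDR 0.0018, and 1.83, FDR 0.0023). CDKN1A, the p21 inhibitor, went from 826 and 763 CPM with siNTC to 3140 and 3470 with siTAZ #2 (2.06, FDR 0.00062), and its value with siTAZ #1 was -0.35 (FDR 0.07). The siRNAs gave opposite calls in 3 genes. ACTA2, which encodes α-smooth muscle actin, was at 179 and 190 CPM with siNTC, 298 and 258 with siTAZ #1 (0.59, FDR 0.013) and 102 and 110 with siTAZ #2 (-0.80, FDR 0.0038). POSTN (periostin), a matrix protein, was higher with siTAZ #1 (0.97, FDR 0.0024) and lower with siTAZ #2 (-0.48, FDR 0.014), and ELN (elastin) was lower with siTAZ #1 (-0.71, FDR 0.017) and higher with siTAZ #2 (1.16, FDR 0.0027). BGN, in this list and in that for the latent complex, lies in the stretch with nearly missing counts in replicate 2 of siTAZ #1.

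**Figure D5:**
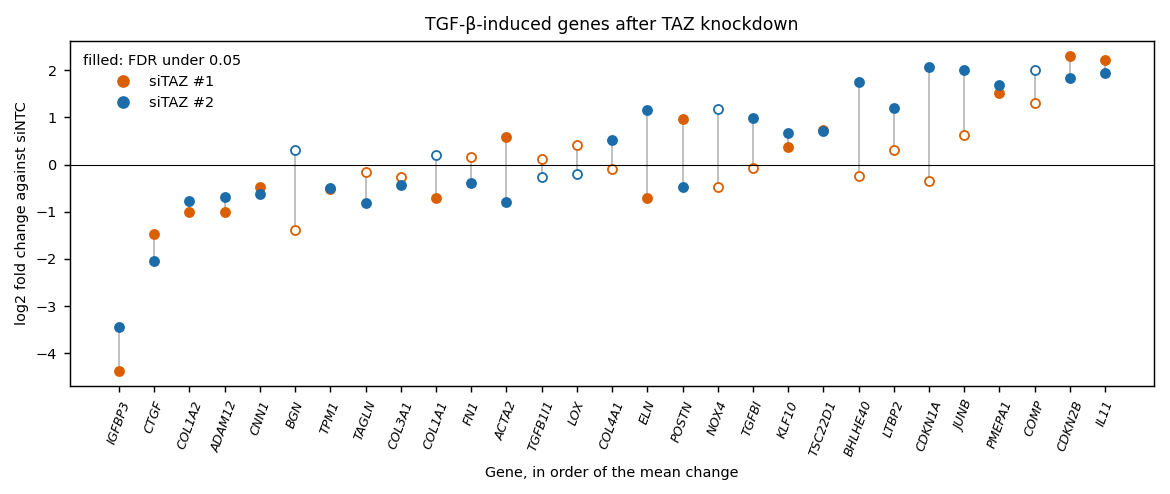
Of the 30 TGF-β-induced genes, 29 are ordered by their mean change on the x axis, with log2 fold changes against siNTC on the y axis for siTAZ #1 and siTAZ #2, joined by a line, and filled points for an FDR under 0.05. IGFBP3 (-4.37 and -3.43) and CTGF (-1.48 and -2.04) stand lowest and CDKN2B and IL11 highest, and ACTA2, POSTN and ELN have filled points on both sides of 0.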

How the data were processed

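RNA-seq of HFL-1 cells was run on an Ion Proton in 6 libraries, 2 each of siNTC, siTAZ #1 and siTAZ #2. Raw read counts per symbol were deposited, which the authors made by aligning reads to hg19 with TMAP and counting with HTSeq 0.6.1, as the submitters' processing notes and the methods say. The counting mode and strand setting are not given in the sources used here. Entries showing a date in place of a symbol (13, with 0.0458% to 0.0506% of a library's counts) were left out.

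Counts were tested in R 4.3.3 with edgeR 4.0.16 (filterByExpr, TMM, quasi-likelihood test), with all groups in a common fit as 2 libraries give little information on spread, and the standard errors were derived from the F statistic. Limits of the precision come from 2 libraries per group and 15648055 to 32078188 counts per library. Alternatives were DESeq2 1.42.0, the exact test and a fit on 4 libraries, other scalings, filters and thresholds, a GC offset, a replicate block, leaving out each library, and dropping the stretch of chromosomes 22, X and Y where replicate 2 of siTAZ #1 had few reads. Positions and lengths came from GENCODE 44 on GRCh37.

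The members and lists were chosen with earlier results of these data known. Genes named from the other lists were the up to 2 lower and 2 higher with the lowest FDR per siRNA, plus those called in opposite directions. SMAD4 was added later. The result of 1 listed gene is not reported here on its own.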

Additional observations from a re-analysis of the deposited data

Results flagged for a closer look

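The siRNAs target the same gene, and 8 of the 10 genes differed between them by edgeR's quasi-likelihood test of siTAZ #1 against siTAZ #2, on the log2 scale. Of all genes tested, 13.4% were called lower and 15.2% higher with siTAZ #1 in this comparison. The ligands TGFB1 (-1.32, FDR 0.0017) and TGFB2 (-1.19, FDR 0.0043) and the inhibitors SMAD7 (-1.04, FDR 0.015) and SKIL (-1.06, FDR 0.0058) were lower with siTAZ #1. The receptors TGFBR1 (0.51, FDR 0.014), TGFBR2 (1.73, FDR 0.0005) and TGFBR3 (1.30, FDR 0.0037) and the ligand TGFB3 (1.02, FDR 0.025) were higher with siTAZ #1. TAZ itself, WWTR1, was lower with siTAZ #1 (-0.70, FDR 0.005), which the exact test did not call (FDR 0.24). Of the 10 genes, the exact test called 5 between the siRNAs, beside 1498 of all genes against 4020 in the quasi-likelihood test. The call of TGFB3 was lost in 8 of 17 alternatives, that of TGFBR1 in 4 and that of SMAD7 in 2.

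Among genes that each siRNA called in opposite directions, FBN1 (1.64), LTBP1 (1.05), ACTA2 (1.39) and POSTN (1.45) were higher with siTAZ #1 than with siTAZ #2, and FURIN (-1.32), ITGB8 (-1.52), SMURF2 (-0.72) and ELN (-1.86) were lower, each with an FDR of 0.0034 or less. Other genes of the storage and receptor lists that differed were DCN (0.93), FBN2 (1.75), ITGB5 (-0.73), ITGB3 (-1.56), CD109 (0.86) and ENG (-0.89). Among SMADs, cofactors and inhibitors, SMAD6 (-1.15) and SMURF1 (-0.46) were lower with siTAZ #1, and TEAD1 (0.51), CREBBP (0.34), SKI (0.75), TGIF1 (0.69) and WWP1 (1.65) were higher. Among ligands and induced genes, GDF15 (0.38) and CTGF (0.56) were higher with siTAZ #1, and IGFBP3 (-0.93) and CDKN1A (-2.41) were lower. The FDR of these genes was at most 0.044. Of these 25 calls between the siRNAs, 14 held in all 17 alternatives. The other 11 were lost in at least 1, and 10 of those were lost in the exact test. CREBBP and GDF15 lost the call in 9 of 17 alternatives and SMURF1 in 7.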

How the results depend on the processing

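With 2 libraries per group, calls near the threshold changed when a library was left out. That leaves its group with 1 library, so a lost call does not single out the library removed. SMAD3 with siTAZ #1, for example, was -0.65 with all libraries, -0.67 without replicate 1 of siNTC and -0.66 without its replicate 2. Over 17 alternatives, the 30 differences of the 10 genes gave 510 values. Of these, 449 kept the direction and the side of the threshold, 42 lost a call, 17 gained a call and 2 changed sign. The calls of TGFBR1 and TGFBR3 with both siRNAs and of TGFB1, TGFB3, TGFBR2, SMAD7 and SKIL with siTAZ #2 held in all 17. For the other named genes, 1445 of 1649 values kept both, 162 lost a call, 20 gained a call and 22 changed sign. The causes were not tested.

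Leaving out each library in turn, the count of the 10 genes called ranged from 2 to 7 with siTAZ #1, 7 to 10 with siTAZ #2 and 5 to 8 between the siRNAs, and that of the other pathway genes from 12 to 50, 26 to 61 and 26 to 52. The lowest counts with siTAZ #1 came without replicate 1 (12) or replicate 2 of siNTC (13), those with siTAZ #2 without replicate 1 (28) or replicate 2 of siNTC (26) or replicate 2 of siTAZ #2 (34), and those between the siRNAs without replicate 2 of siTAZ #2. The exact test on 4 libraries called 2 of the 10 genes with siTAZ #1 and 5 between the siRNAs, and 15 and 22 of the other pathway genes, and gave -0.70 (FDR 0.24) for WWTR1 between the siRNAs. Over all genes, the quasi-likelihood test called 2889, 4004 and 4020, and the exact test 1061, 6424 and 1498. The fit on 4 libraries called 6097 with siTAZ #2, and leaving out a library gave 556 to 5100, 1328 to 6042 and 1797 to 5659.

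Per length, the siNTC means over the union of exons were 21.4 for TGFB1, 1.7 for TGFB3, 1.8 for TGFBR1, 68.3 for TGFBR2, 10.7 for TGFBR3, 1.5 for SMAD2, 59.7 for SMAD3 and 3.6 for SKIL, each further from the value given than 1 SD.

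Over 11530 genes, the deviations of same-numbered libraries correlated by -0.00384 between siNTC and siTAZ #1 and by 0.0169 between siNTC and siTAZ #2. Between siTAZ #1 and siTAZ #2 the correlation was -0.329. Same-numbered libraries thus did not deviate together, and replicate 1 of each TAZ siRNA tended to deviate with replicate 2 of the other. The cause of this relation was not tested. With the replicate block, 4 of the 10 genes were called with siTAZ #1, 9 with siTAZ #2 and 7 between the siRNAs. Of all genes, 1691, 2749 and 2869 were called in these comparisons, against 2889, 4004 and 4020 without the block. The calls lost under the block were those of SMAD2 with siTAZ #1 (FDR 0.092) and siTAZ #2 (FDR 0.051) and of TGFB3 between the siRNAs (FDR 0.053).

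Changes of sign concerned values near 0. SMAD2 between the siRNAs ranged from -0.23 to 0.03 without a library, at 0.03 without replicate 1 of siTAZ #1 and 0.02 without replicate 1 of siTAZ #2. SMURF1 with siTAZ #2 was 0.02 with the GC offset and ranged from -0.14 to 0.01 without a library, the highest without replicate 1 of siTAZ #2. CREBBP with siTAZ #1 was -0.02 with DESeq2, without the low-count filter and without the genes from RANGAP1 on, -0.01 in the exact test and the fit on 4 libraries, -0.0024 with RLE scaling, -0.03 with upper-quartile scaling, and -0.09 to 0.08 without a library. SKI with siTAZ #2 was -0.01 with DESeq2 and RLE scaling, -0.0016 and -0.0017 in the exact test and the fit on 4 libraries, -0.02 without the filter, -0.26 with the GC offset and -0.05 to 0.02 without a library.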
